A study of Medicago truncatula with 14 samples.

Results

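The binding of NIN and LSH1 was examined around 4 Medicago truncatula genes of nodule signal perception and of the feedback that limits nodule number: NFP (LOC11410973), PUB1 (LOC11430446) and RDN1 (LOC11432343) on chromosome 5, and SUNN (LOC11439632) on chromosome 4. They are 4 of 31728 coding genes on the 8 chromosomes. A peak was taken as near a gene when at most 30 kb lay between it and the gene, which gave 134 of the 213590 peaks in 7 lists. The material was hairy roots (roots formed after Agrobacterium rhizogenes transformation) of ecotype jemalong, cultivar Jester, kept for 3 weeks without rhizobia. They expressed GFP-LSH1 (4 immunoprecipitations, 4 controls) or GFP-NIN (3 immunoprecipitations, 3 controls) from the Lotus japonicus ubiquitin promoter LjUBI. Each list was called by the authors from 1 immunoprecipitation and the control of its replicate number. The labels place the controls under the same overexpression genotype, and their protocol also names LjUBI-driven nuclear GFP as a control. Both proteins were thus overproduced, in whole roots and in the absence of symbiosis, and the lists show where tagged protein was recovered, not where the native protein binds. The tissue label cannot be checked against marker genes in peak lists.

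Nodulation starts when root cells perceive Nod factors, the lipochitooligosaccharide signals of rhizobia. NFP is a LysM receptor-like kinase required for that perception, and PUB1 is a U-box E3 ubiquitin ligase that interacts with the LysM receptor kinase LYK3 and restrains infection and nodule formation. Nodule number is then held down by autoregulation, in which CLE peptides made in nodulating roots act through a shoot receptor. SUNN is that leucine-rich repeat receptor kinase. RDN1 is a hydroxyproline O-arabinosyltransferase that adds arabinose to a CLE peptide. NIN (NODULE INCEPTION) is an RWP-RK transcription factor that starts nodule development and also activates genes of autoregulation, and LSH1 (LIGHT SENSITIVE SHORT HYPOCOTYL) is an ALOG-family regulator of nodule identity.

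The LSH1 lists held 25127, 21902, 18750 and 20787 peaks and the NIN lists 14021, 28825 and 84178. NIN replicate 3 covered 52.7 Mb and each of the other lists 4.04 to 10.3 Mb, so 39 of the 60 NIN peaks near the 4 genes came from that list. The LSH1 lists gave 20, 16, 23 and 15 peaks there, 74 in all, and NIN replicates 1 and 2 gave 11 and 10. The lists hold no height, fold or q-value. The running number of a peak was read as its rank, although the measure behind the order is not given, and place in list is 100 times this number over the list length, so that low values come first. Read depth is unknown, so a missing peak is not evidence that the protein was absent.

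No site in or beside any of the 4 genes recurred. A site is called recurrent here when overlapping peaks of a protein came from 2 or more of its lists, and 0 of the 4 genes had a recurrent LSH1 or NIN region in the gene body or within 2 kb of it. Over all coding genes, 19.8% had a recurrent LSH1 region in the gene body and 30.7% in it or within 2 kb. For NIN these shares were 9.6% and 19.1%. With 4 genes, a count of 0 does not set them apart from such shares. Single lists did have peaks in or beside the 4 genes, 6 for LSH1 and 7 for NIN within 2 kb. Of these, 4 and 3 lay in a gene body. A single LSH1 list had a peak within 2 kb of 32.3% to 40.4% of coding genes and in the body of 19.2% to 25.2%. For single NIN lists these shares were 20.8% to 66.1% and 12.2% to 40.7%, the highest in replicate 3. Farther out, the windows held 11 recurrent LSH1 regions of 16700 on the chromosomes and 6 recurrent NIN regions of 17194. The LSH1 regions fell 5 at NFP, 3 at PUB1, 3 at SUNN and 0 at RDN1, and the NIN regions 2, 1, 1 and 2. The median over all coding genes was 2 for either protein.

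**Figure D1:**
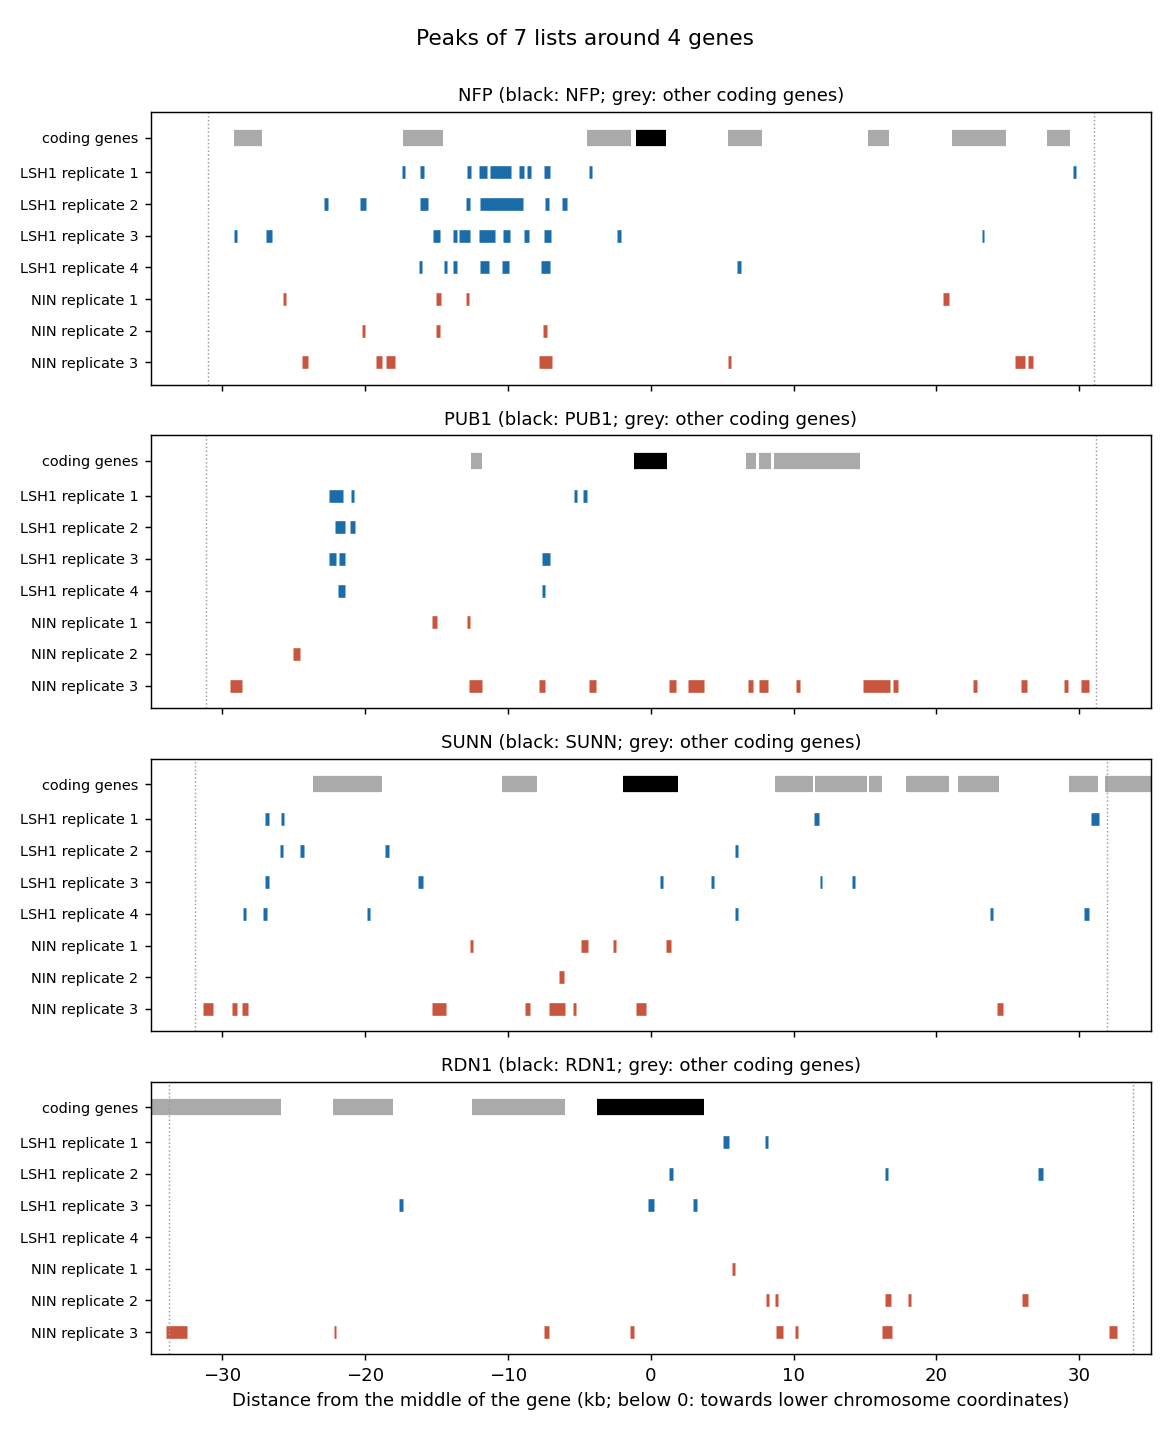
Peaks of the 7 lists (blue for LSH1, red for NIN) around each gene, with distance from the middle of the gene in kb on the horizontal axis and lists on the vertical axis; black and grey blocks are coding genes and dotted lines mark 30 kb from the gene. The LSH1 peaks at NFP gather on the side of lower coordinates, while the peaks inside SUNN and RDN1 do not line up between lists.

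At NFP, the LSH1 lists had 10, 7, 11 and 7 peaks within 30 kb and the NIN lists 4, 3 and 7. The means over all coding genes were 4.54, 3.95, 3.37 and 3.85 for LSH1 and 2.13, 3.90 and 11.5 for NIN. Every LSH1 list was thus above its own mean, while NIN replicate 1 was above and NIN replicates 2 and 3 were below theirs. At least as many peaks as at NFP were found at 9.83%, 19.5%, 2.04% and 20.3% of coding genes in the LSH1 lists, and at 19.4%, 55.7% and 82.9% in the NIN lists. Of the 35 LSH1 peaks, 32 lay on the side of lower coordinates and 3 on the other. The gene table gives no strand, so neither side can be called upstream.

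Most of these LSH1 peaks formed 1 stretch. Between 5 and 15 kb from NFP on the lower side, a range chosen after the values were seen, lay 7, 4, 7 and 6 LSH1 peaks and 2, 2 and 1 NIN peaks. All 5 recurrent LSH1 regions of the window were in it. The widest, on chromosome 5 at 7165274 to 7168866, spanned 3593 bp, was in 4 of 4 LSH1 lists and overlapped 0 NIN lists. The mean place of its earliest peak in each list, the measure called mean place of a region below, was 19.2%, while over all 10 of its peaks the mean was 40.7%. It lay 7375 bp from NFP and 2575 bp from LOC11416574, its nearest coding gene. In replicate 2 most of it was 1 peak of 3050 bp at place 19.2%, whereas the other 3 lists split it into narrower peaks. These stood at 7.54%, 34.8%, 53.5% and 69.2% in replicate 1, at 6.15%, 41.4% and 72.5% in replicate 3, and at 43.9% and 58.8% in replicate 4, so that early and late peaks made up the same region.

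A second site of this stretch was in 6 of the 7 lists. The LSH1 region at 7169569 to 7170260, 5981 bp from NFP, was in 4 of 4 lists, and it overlapped the NIN region at 7169464 to 7170360, 5881 bp from NFP, which was in NIN replicates 2 and 3. Its LSH1 places were 94.2%, 88.5%, 22.6% and 36.0% for replicates 1 to 4. The NIN places were 76.9% for replicate 2 and 6.49% for replicate 3, with no peak in replicate 1. The lists thus shared the position but not the place. This was the 1 pair of overlapping recurrent regions of the proteins among the 4 genes. LOC11409942 was its nearest coding gene. This gene ends 317 bp from NFP and lies between the site and NFP. Of the LSH1 peaks near the 4 genes, 18.9% overlapped a NIN list, against 18.7% of all LSH1 peaks. For NIN peaks, 18.3% overlapped an LSH1 list, against 10.5% of all NIN peaks. How often recurrent regions of the proteins overlapped over the chromosomes was not computed.

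The other recurrent LSH1 regions of the stretch lay at 11575, 12536 and 14571 bp from NFP, in 3, 2 and 3 lists, with mean places of 61.6%, 23.3% and 73.3%. The last of them overlapped LOC11416574, as did the second NIN region (7162238 to 7162585), which was in NIN replicates 1 and 2 at places 18.4% and 98.0%. Nearest to NFP was a peak of LSH1 replicate 3 at 1032 bp, at place 48.5% and in no other list. For NIN the nearest peak, of replicate 3, lay 4346 bp away. The earliest peak near NFP, at place 1.55% of NIN replicate 1, was 24497 bp away and in no other list.

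At PUB1, the LSH1 lists had 4, 2, 3 and 2 peaks and the NIN lists 2, 1 and 15. Each LSH1 list and NIN replicates 1 and 2 were below their means over coding genes, and NIN replicate 3 was above its mean of 11.5. All 11 LSH1 peaks lay on the side of lower coordinates. On the other side were 11 NIN peaks, each from replicate 3. The 2 nearest of these lay 114 bp and 1422 bp from PUB1, at places 82.6% and 31.7%, and neither overlapped a peak of another list.

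The site of PUB1 that recurred most was distant from the gene. The LSH1 region on chromosome 5 at 36996720 to 36997844 was in 4 of 4 lists with a mean place of 11.9% (13.9% over all 5 of its peaks), the earliest of the 17 recurrent regions near the 4 genes. It held the first-placed peak of the window in each LSH1 list, at 16.0%, 9.09%, 15.02% and 7.50%. The 4 lists were close in place here, unlike at the site in 6 lists near NFP. How many recurrent LSH1 regions on the chromosomes were in 4 lists, or placed this early, was not computed. The region lay 20235 bp from PUB1 and 8803 bp from LOC11431147, its nearest coding gene. The other recurrent LSH1 regions were each in 2 lists, at 19567 bp and 5937 bp, and the second also overlapped a peak of NIN replicate 3. The recurrent NIN region (37006376 to 37007380) was in replicates 1 and 3, overlapped LOC11431147 and lay 10699 bp from PUB1.

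At SUNN, the LSH1 lists had 4, 4, 6 and 6 peaks and the NIN lists 4, 1 and 9. The window held 10 coding genes, against 8, 5 and 4 at NFP, PUB1 and RDN1. The gene body held a peak of NIN replicate 3 (chromosome 4, 34867657 to 34868337, place 39.9%), one of NIN replicate 1 (34869744 to 34870079, place 25.5%) and one of LSH1 replicate 3 (34869320 to 34869533, place 97.1%). These 3 peaks did not overlap. NIN replicate 1 had a further peak 541 bp from the gene at place 50.3%. Thus 2 of 3 NIN lists had a peak in the gene, at different positions; over all coding genes, 12.2% had one in NIN replicate 1, 40.7% in NIN replicate 3 and 19.2% in LSH1 replicate 3.

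The nearest recurrent regions of SUNN were 3958 bp away for LSH1 (34874551 to 34874807, replicates 2 and 4, mean place 56.0%) and 4084 bp away for NIN (34861518 to 34862659, replicates 2 and 3, mean place 47.8%). They lay on opposite sides of the gene. The other recurrent LSH1 regions were 24812 bp and 23731 bp away, in 3 and 2 lists, with mean places of 66.0% and 65.7%. No LSH1 peak of the window was earlier than 25.8% of its list.

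At RDN1, the LSH1 lists had 2, 3, 3 and 0 peaks and the NIN lists 1, 5 and 8. Each LSH1 list was below its mean over coding genes, and NIN replicate 2 was the 1 NIN list above its mean. No peak of an LSH1 list overlapped one of another LSH1 list, and 19.9% of coding genes likewise had no recurrent LSH1 region within 30 kb. The gene body held 2 peaks of LSH1 replicate 3 at places 19.1% and 69.5%, one of LSH1 replicate 2 at 50.4% and one of NIN replicate 3 at 97.0%, none of which overlapped. Outside it, LSH1 replicate 1 had a peak at 1322 bp (place 90.0%) and NIN replicate 1 a peak at 1967 bp (place 35.0%).

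The 2 recurrent NIN regions of RDN1 lay beyond its end at higher coordinates, on chromosome 5 at 40107671 to 40108192 and at 40115165 to 40115806, which is 4979 bp and 12473 bp from the gene. Both were in NIN replicates 2 and 3, with mean places of 51.1% and 52.8%, and a late peak of LSH1 replicate 2 (place 97.2%) overlapped the second. RDN1 was the nearest coding gene of both. No other coding gene lay within 30 kb of RDN1 on that side, so this nearness does not by itself link the sites to RDN1. The recurrent LSH1 and NIN regions at the other 3 genes each lay nearer to another coding gene.

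**Figure D2:**
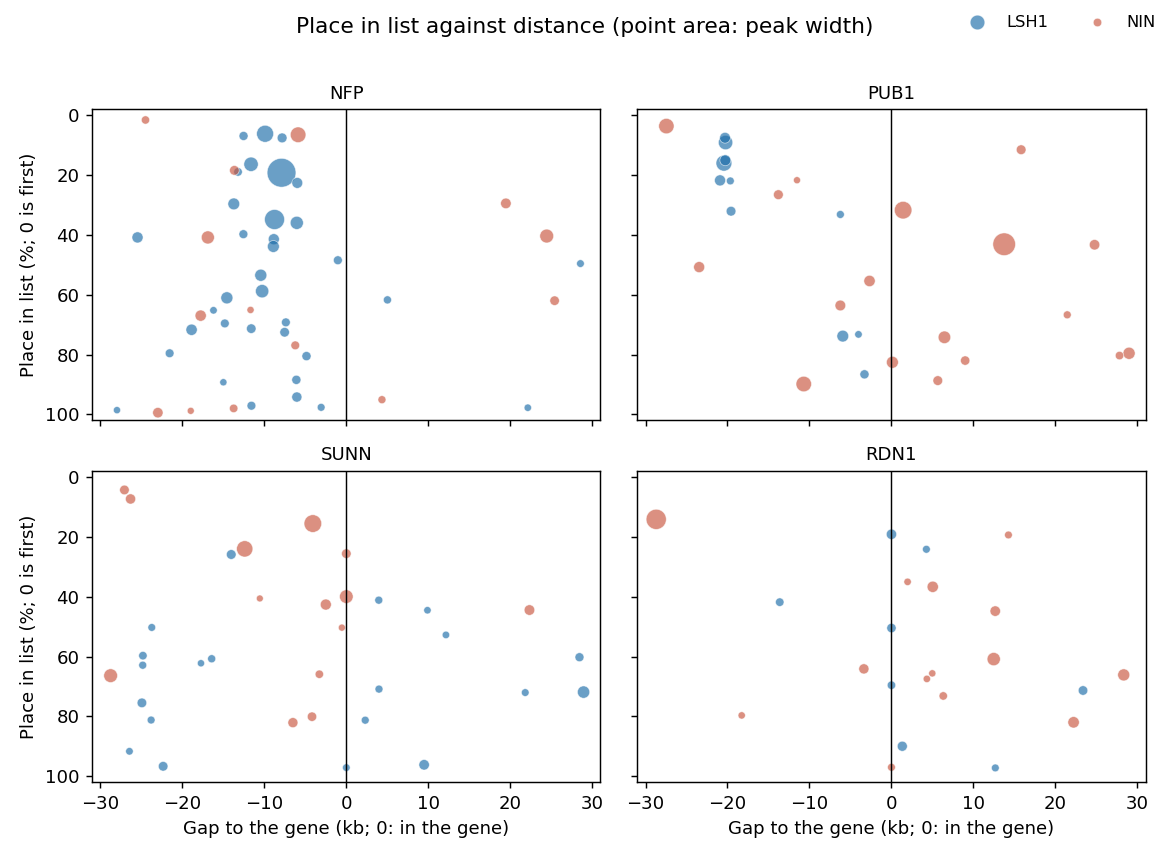
Place in list (vertical axis, per cent, first peaks at the top) against the gap to the gene in kb (horizontal axis, 0 for peaks in the gene) for all 134 peaks, with point area proportional to peak width. Most LSH1 peaks at NFP and all at PUB1, early and late, lie on the left, and LSH1 peaks at SUNN start at 25.8%.

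To compare the proteins, peaks within 30 kb were scaled to 10000 peaks of the list. At NFP this density was 3.98, 3.20, 5.87 and 3.37 for LSH1 and 2.85, 1.04 and 0.832 for NIN, so that every LSH1 list lay above every NIN list. The means were 4.10 ± 1.22 (SD, n = 4) and 1.58 ± 1.11 (SD, n = 3), a difference of 2.53 (two-sided exact permutation test over 35 arrangements of the lists, p = 0.0286, adjusted p = 0.0816 after Benjamini and Hochberg over all coding genes). With 35 arrangements p cannot be smaller than 0.0286, so the adjusted p of 0.0816 is also the smallest of any gene and 0% of genes passed an adjusted threshold of 0.05. At an unadjusted exact permutation p under 0.05, LSH1 was higher at 5958 genes (18.8%) and NIN at 5156 (16.3%). The LSH1 lists all lay above the NIN lists at 28.9% of coding genes, so the separation at NFP is common in these data. The labels do not say that replicates came from separate cultures, and these p-values measure the spread between lists, which may be technical.

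At the other 3 genes the lists of the proteins overlapped. SUNN had 1.59, 1.83, 3.20 and 2.89 peaks per 10000 for LSH1 and 2.85, 0.347 and 1.07 for NIN, with means of 2.38 ± 0.787 (SD, n = 4) and 1.42 ± 1.29 (SD, n = 3; exact permutation p = 0.286, adjusted p = 0.384). The order turned within 10 kb of SUNN, where LSH1 minus NIN was -0.25 (exact permutation p = 0.657). PUB1 had means of 1.27 ± 0.381 for LSH1 (SD, n = 4) and 1.19 ± 0.747 for NIN (SD, n = 3; exact permutation p = 0.914, adjusted p = 0.940). RDN1 had means of 0.941 ± 0.713 for LSH1 (SD, n = 4) and 1.13 ± 0.535 for NIN (SD, n = 3; exact permutation p = 0.714, adjusted p = 0.780). The sign of the difference changed at PUB1 without LSH1 replicate 1 (-0.03), LSH1 replicate 3 (-0.03) or NIN replicate 2 (-0.34), and at RDN1 without LSH1 replicate 4 (0.12) or NIN replicate 2 (0.11), so neither gene had a stable direction. From highest to lowest LSH1 mean the order was NFP, SUNN, PUB1 and RDN1. Over all coding genes the mean density was 1.82 for LSH1 and 1.41 for NIN.

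**Figure D3:**
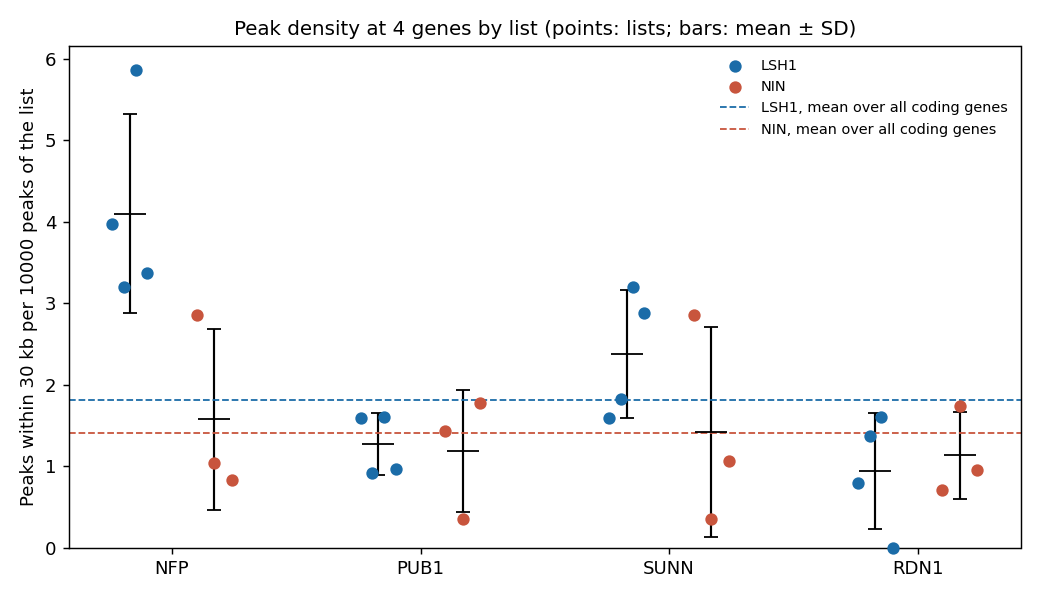
Peaks within 30 kb per 10000 peaks of the list (vertical axis) at the 4 genes (horizontal axis); points are lists, black bars the mean ± SD (LSH1 n = 4, NIN n = 3) and dashed lines the means over all coding genes, 1.82 for LSH1 and 1.41 for NIN. The colours separate at NFP and overlap at PUB1, SUNN and RDN1.

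The 4 genes differed in how far lists of a protein coincided. Another LSH1 list was overlapped by 22 of 35 LSH1 peaks at NFP, 9 of 11 at PUB1, 7 of 20 at SUNN and 0 of 8 at RDN1. These are the peaks that make up the recurrent LSH1 regions, and 10 of the 22 at NFP lie in the widest region. The overlapping peaks are together 51.4% of the LSH1 peaks near the 4 genes, against 57.0% of all LSH1 peaks. How such shares vary between coding genes was not computed. For NIN, 4 of 14, 2 of 18, 2 of 14 and 4 of 14 peaks overlapped another NIN list, in all 20% against 30.1% of all NIN peaks. Of the 6 recurrent NIN regions none was in all 3 lists, and 1 each was left without NIN replicate 2 or without NIN replicate 3. Peaks in the first 20% of their lists numbered 11 of 74 for LSH1 (14.9%) and 10 of 60 for NIN (16.7%). Wider than the median of their list were 40.5% of the LSH1 and 50% of the NIN peaks. Of the recurrent regions, 10 of 11 for LSH1 and 4 of 6 for NIN lay on the side of lower coordinates. The LSH1 count includes the 5 regions of the stretch at NFP and the 3 at PUB1. Without strand the sides of different genes cannot be equated, and the share over all coding genes was not computed.

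**Figure D4:**
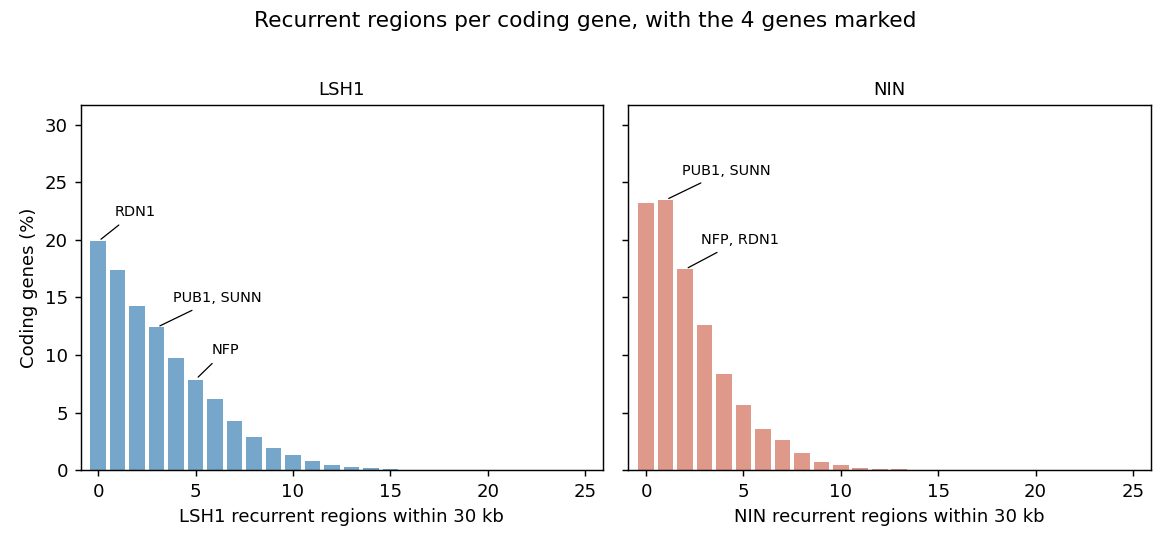
Share of all 31728 coding genes (vertical axis, per cent) with each number of recurrent LSH1 (left) or NIN (right) regions within 30 kb (horizontal axis), with the 4 genes marked. NFP, with 5 LSH1 regions, lies above the median of 2, and 26.4% of coding genes have at least as many; RDN1 has 0.

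At the 30 kb limit, the outermost peaks inside it lay 28557 bp from NFP, 28984 bp from PUB1, 28938 bp from SUNN and 28696 bp from RDN1, and the first outside it 30631, 30318, 31018 and 30420 bp away. Of the last 4, those at NFP, PUB1 and RDN1 were peaks of NIN replicate 3, at places 73.1%, 20.7% and 12.3%. The one at SUNN was a peak of LSH1 replicate 2 at place 95.5%.

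Of 48 other gene names of perception and autoregulation, 2 were matched in the gene table. RDN2 (LOC11443987, chromosome 8), a hydroxyproline O-arabinosyltransferase related to RDN1, had 2, 0, 0 and 2 LSH1 peaks and 6, 13 and 11 NIN peaks within 30 kb. Every NIN list lay above every LSH1 list after scaling, which was so at 17.9% of coding genes. The scaled means were 0.440 ± 0.512 for LSH1 (SD, n = 4) and 3.37 ± 1.79 for NIN (SD, n = 3; exact permutation p = 0.0286, adjusted p = 0.0816). RDN2 had 3 recurrent NIN regions, 1 of them in the gene body, and 0 recurrent LSH1 regions. Over all coding genes the median was 2 recurrent NIN regions, and 19.9% had 0 recurrent LSH1 regions. A recurrent region lay in the gene body at 9.6% of coding genes for NIN and 19.8% for LSH1. CNGC15A (LOC11433273, chromosome 1), a subunit of the nuclear calcium channel of symbiotic signalling, had 7, 5, 4 and 7 LSH1 peaks and 3, 6 and 13 NIN peaks. Its scaled densities overlapped (exact permutation p = 0.143, adjusted p = 0.227), and 1 of its 4 recurrent NIN regions lay in the gene body against 0 of its 3 recurrent LSH1 regions.

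For each of the 4 genes, the 2 coding genes with the most similar profile over the 7 lists were taken. Being the smallest of all distances, theirs lie below the median by selection. The contrast with the median therefore does not show how unusual a profile is. By Euclidean distance over the 7 densities, each divided by the mean of its list, NFP was nearest to LOC25502009 on chromosome 8 (distance 0.478, against a median of 3.47 over coding genes) and LOC25499529 on chromosome 7 (0.576). PUB1 was nearest to LOC11405340 and LOC11411730 on chromosome 4 (0.281 each, median 1.92). Those 2 genes had the same peak numbers as each other, but not as PUB1. They had 3 peaks in LSH1 replicate 1 and 13 in NIN replicate 3, where PUB1 had 4 and 15. SUNN was nearest to LOC11435146 on chromosome 7 (0.363, median 2.36) and LOC11415844 on chromosome 3 (0.366). RDN1 was nearest to LOC25499815 on chromosome 7 (0.174, median 2.02) and LOC112421843 on chromosome 5 (0.281).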

How the data were processed

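Chromatin immunoprecipitation sequencing gave 14 libraries. Per the labels, the authors called peaks for each replicate from 1 immunoprecipitation and its control. The names of the deposited lists give narrow peaks and a q cutoff of 0.05. Bowtie2, Picard, MACS2 and ChIPseeker are named in the submitters' processing notes; no version, setting or build is given in the sources used here. Each deposited list holds sequence name, start, end and running number, with no score. Lists were grouped by title into LSH1 (4) and NIN (3).

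Gene positions were read from RefSeq (assembly MtrunA17r5.0-ANR); these coordinates are not printed, because the build of the lists is not named. Of LSH1 peak midpoints, 24.9% lay within 500 bp of a gene end, and 16.7% to 17.1% after genes were moved by 5000 or 20000 bp, so distances were computed across both. Peaks are given at their listed positions, counted from 1. A gap is the number of bases between peak and gene. Within a protein, peaks sharing 1 bp or more were joined, and joined regions found in 2 or more lists were called recurrent. Densities were compared with two-sided exact permutation tests of the difference of means, run for all coding genes and adjusted after Benjamini and Hochberg (Python 3.11.15, numpy 2.4.6). The test was run on made-up counts with known differences, drawn independently for each gene around the mean of each list. In the real lists neighbouring genes share peaks, so that run does not show how the test behaves here.

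The members, lists and tests were chosen with earlier results of these data known. The rule for named genes was the 4 genes, matched pathway genes, the nearest coding gene of each region described and, for each member, the 2 coding genes over 100 kb away with the most similar densities. Alternatives were windows of 10 and 50 kb, the first 5000 peaks, no peaks over 2000 bp, covered bases, a replicate block, peaks of all lists, midpoints within 100 bp, and each list left out. Sequence and exon structure were not used here.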

Additional observations from a re-analysis of the deposited data

How the results depend on the processing

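The density difference (LSH1 minus NIN, per 10000) at NFP was positive under each alternative run. In peak counts it ran from 1.5 with the first 5000 peaks (exact permutation p = 0.543) to 3.82 with a window of 50 kb (p = 0.0286). With single lists left out it was 1.94 to 3.17. Without peaks over 2000 bp it was 2.41 (exact permutation p = 0.0857). In bases covered per 10000 bases of the list, another unit, it was 3.59 (exact permutation p = 0.0571). The NFP difference passed an adjusted threshold of 0.05 under no alternative. Leaving out 1 list puts the smallest exact p at 0.0667 to 0.1, so those tests cannot show stability. SUNN turned to -0.25 within 10 kb and to -0.83 with the first 5000 peaks, was 2.29 within 50 kb (exact permutation p = 0.0286, adjusted p = 0.0656), and ranged from 0.42 to 1.67 with lists left out. PUB1 was 0.75 within 50 kb (exact permutation p = 0.4) and 0.5 with the first 5000 peaks (exact permutation p = 1), against 0.08 within 30 kb over whole lists, and ranged from -0.34 to 0.38 with lists left out. RDN1 was -0.87 within 50 kb (exact permutation p = 0.0857), against -0.19 within 30 kb, and ranged from -0.41 to 0.12 with lists left out. Densities were scaled to list length but not to window size, so differences at 10, 30 and 50 kb are not on the same scale. With the replicate block the differences were 2.77 at NFP, 0.18 at PUB1, 0.78 at SUNN and 0.12 at RDN1, where the sign turned since LSH1 replicate 4 has no partner and drops out; 3 pairs allow no exact p under 0.25. Same-numbered lists were not more alike than others. Their deviations over coding genes correlated at 0.017, 0.0039 and -0.080, and those of differently numbered lists at -0.096 to 0.098. Whether replicates were handled together by number cannot be read from these values. The 11 recurrent LSH1 regions became 4 within 10 kb, 23 within 50 kb, 2 with the first 5000 peaks, 3 in all lists and 8 to 9 with a list left out. The 6 recurrent NIN regions became 3 within 10 kb, 10 within 50 kb, 0 with the first 5000 peaks, 0 in all lists, 3 by midpoints and 1 to 4 with a list left out. Some of these changes follow from the definitions. A wider window can hold only as many regions or more, and regions in all lists are part of the recurrent ones. With a NIN list left out, a recurrent region must be in both lists that remain. The cause of the remaining changes was not tested. Depth per list is unknown, which limits every absence of a peak.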
